A study of Rattus norvegicus with 6 samples.

Results

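The genes described here are 39 members of the NF-kB, TNF and toll receptor pathways, chosen by function and looked up by rat symbol through the Entrez identifiers of a count table of 17139 genes. Of the 39, 38 had a row, and all 38 had enough counts to be tested. Nos2, the inducible nitric oxide synthase, had no row and was not analysed here. The RNA came from cultured primary rat nucleus pulposus cells, which build the hydrated centre of the disc between vertebrae. The cells were left without treatment (control, n = 3 libraries) or received bradykinin at 10 µM (n = 3 libraries). Bradykinin is a short kinin peptide, and B1 and B2 are its G protein-coupled receptors. Although the treated samples have B2R in their titles, their treatment field gives BK, and the group was taken from that field. Strain, age, passage and the length of treatment are not given in the sources used here. The series asks how bradykinin acts on senescence and matrix turnover in these cells.

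NF-kB is a family of dimeric transcription factors held in the cytoplasm by inhibitors of the IkB family. When TNF, IL-1 or microbial ligands bind their receptors, adaptors and TRAF proteins activate the IKK complex, which marks the inhibitors for destruction and frees NF-kB to enter the nucleus. Among the genes it then switches on are its own inhibitors, A20 and adhesion molecules, so the messages of these targets are often read as a sign of pathway activity. In the disc the pathway is known for its link to inflammation and to the breakdown of matrix.

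Total counts per library ranged from 12883067 to 15462764. Bradykinin replicate 3 differed from the rest: its Spearman correlations with them across genes were 0.960 to 0.963, against 0.992 to 0.996 between the other pairs. Results are therefore given over all 6 libraries and again over 5, without that library. Levels are in CPM, a gene's count after scaling each library's total by TMM (trimmed mean of M values). Of 15 markers of the labelled cells 12 had a row, and they summed to 2929 to 3613 CPM with bradykinin and 2754 to 2933 CPM in controls. Most of this sum was Col6a1, at 2328 to 2929 CPM, and then Acan, at 257 to 511.5 CPM. Krt8 was at 0.788 to 1.76 CPM and Hapln1 at 3.78 to 5.59 CPM. Over 6 libraries 0 of the 11 tested were called. Without bradykinin replicate 3, 2 rose, against 1.95% of all tested genes, and 1 fell, against 1.15%. The cartilage proteoglycan gene Acan rose (0.95 ± 0.04, SE, on the log2 scale, edgeR adjusted p = 1.56e-07), as did Col6a1 (0.21 ± 0.05), and the carbonic anhydrase gene Car3 fell (-1.44 ± 0.19, edgeR adjusted p = 0.00103). Over 6 libraries Acan was at 0.74 ± 0.19, Col6a1 at 0.16 ± 0.10 and Car3 at -1.34 ± 0.18. Col2a1, the main cartilage collagen, was under 1 CPM in every library. The notochordal marker Tbxt had no row, nor did Krt18 and Krt19. Of 16 leukocyte markers, 7 had a row and 6 of these were under 1 CPM in every library. The 7 summed to 1.24 to 1.498 CPM with bradykinin and 1.49 to 2.46 CPM in controls. Of 9 endothelial markers 5 had a row, and Pecam1, Kdr, Tek and Vwf were under 1 CPM throughout. The summed endothelial level, 25.9 to 38.1 CPM with bradykinin and 22.3 to 26.2 CPM in controls, was nearly all Egfl7. The 8 fibroblast-type markers summed to 66520 to 82610 CPM with bradykinin and 70180 to 75200 CPM in controls. The 9 smooth muscle and pericyte markers summed to 2912 to 3546 CPM with bradykinin and 3651 to 3790 CPM in controls. Over 6 libraries 0 of the 8 tested were called. Of these, 4 fell without bradykinin replicate 3, against 1.15% of all tested genes, and 2 rose, against 1.95%. Acta2 (-0.56 ± 0.04), Tagln (-0.40 ± 0.04), Myh11 (-0.33 ± 0.06) and Pdgfrb (-0.28 ± 0.06) fell, and Cspg4 (0.59 ± 0.05) and Des (0.46 ± 0.08) rose. The part of these shifts in the results on the pathway was not tested.

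NF-kB binds short DNA sites that start with GGG and end in CC, and the promoters of many members hold such letters. RefSeq promoter windows of 300 bases (250 before and 50 after the start that the table uses, build GRCr8) were found for 33 of the 38 measured members. For Nfkbia, Nfkb1 and Tnfaip3 that start lies inside the gene's annotated span, so positions are given within the window and not as distances from a gene's start. The motif GGGNNTTTCC, read on both strands, lay in 8 of these 33 windows (24.2%), against 414 of 27457 rat promoter windows (1.51%). A looser set, GGGNNNTTCC, GGGNNNCTCC, GGGNNNTCCC or GGGNNNCCCC, which contains the first motif, lay in 20 of 33 (60.6%) against 18.5% of all windows. The member windows were also richer in G and C, with a median of 61.3% against 52.3%. All windows include those of genes that were not tested. Of the genes tested over 6 libraries that have a window, 2253 held a match of the looser set and 7229 did not. The members were chosen for their part in this pathway, and the excess of sites was not tested. Windows of 6 members are shown. Nfkbia, Nfkbiz, Nfkb1 and the A20 gene Tnfaip3 hold GGGNNTTTCC, and the receptor gene Tnfrsf1a holds no match. They are compared below. Bcl3, of the IkB family, holds matches of the looser set only and is not part of that comparison. Capitals mark matches of the looser set on either strand, and each window is written on its gene's strand, and positions count from 1 at the 5′ end of the window. The windows are those of Nfkbia (chr6:78597023-78597322, minus strand), Nfkbiz (chr11:58251471-58251770, plus strand), Nfkb1 (chr2:226805413-226805712, minus strand), Tnfaip3 (chr1:15543930-15544229, minus strand), Bcl3 (chr1:88613506-88613805, minus strand) and Tnfrsf1a (chr4:159836869-159837168, plus strand).
Nfkbia: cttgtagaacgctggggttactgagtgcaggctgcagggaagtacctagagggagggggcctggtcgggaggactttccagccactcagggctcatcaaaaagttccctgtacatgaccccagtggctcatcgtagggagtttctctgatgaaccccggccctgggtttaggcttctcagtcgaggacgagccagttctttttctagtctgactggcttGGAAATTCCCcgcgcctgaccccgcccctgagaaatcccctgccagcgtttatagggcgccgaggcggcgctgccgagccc
Nfkbiz: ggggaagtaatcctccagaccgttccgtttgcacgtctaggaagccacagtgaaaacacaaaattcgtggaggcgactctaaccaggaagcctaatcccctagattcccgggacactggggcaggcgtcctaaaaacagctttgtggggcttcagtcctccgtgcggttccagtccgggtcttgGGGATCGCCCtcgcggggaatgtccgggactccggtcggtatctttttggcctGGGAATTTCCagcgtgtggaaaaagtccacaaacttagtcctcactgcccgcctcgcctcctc
Nfkb1: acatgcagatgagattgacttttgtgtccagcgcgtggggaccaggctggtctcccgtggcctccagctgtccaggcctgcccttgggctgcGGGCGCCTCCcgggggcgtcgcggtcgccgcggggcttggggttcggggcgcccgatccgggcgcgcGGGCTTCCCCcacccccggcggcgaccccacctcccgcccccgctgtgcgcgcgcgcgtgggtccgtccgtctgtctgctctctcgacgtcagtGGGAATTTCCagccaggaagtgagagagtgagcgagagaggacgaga
Tnfaip3: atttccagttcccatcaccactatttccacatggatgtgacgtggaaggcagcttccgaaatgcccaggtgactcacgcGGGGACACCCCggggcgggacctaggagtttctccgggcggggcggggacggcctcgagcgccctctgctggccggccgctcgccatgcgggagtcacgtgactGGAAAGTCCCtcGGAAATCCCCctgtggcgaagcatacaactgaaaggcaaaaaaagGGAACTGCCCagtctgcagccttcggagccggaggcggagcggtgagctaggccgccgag
Bcl3: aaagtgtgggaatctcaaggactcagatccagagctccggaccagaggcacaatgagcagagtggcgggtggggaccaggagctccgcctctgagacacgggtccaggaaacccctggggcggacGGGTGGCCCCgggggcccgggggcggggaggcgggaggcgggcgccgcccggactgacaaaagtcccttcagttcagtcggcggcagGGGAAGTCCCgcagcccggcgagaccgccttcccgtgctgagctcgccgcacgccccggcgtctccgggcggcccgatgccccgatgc
Tnfrsf1a: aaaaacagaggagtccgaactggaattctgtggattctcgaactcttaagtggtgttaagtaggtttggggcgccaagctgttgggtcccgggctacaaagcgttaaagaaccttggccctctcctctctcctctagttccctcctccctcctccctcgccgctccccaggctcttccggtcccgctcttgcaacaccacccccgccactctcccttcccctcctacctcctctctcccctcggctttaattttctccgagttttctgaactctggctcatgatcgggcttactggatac
Nfkbia, Nfkbiz and Nfkb1 hold the same 10 letters, GGGAATTTCC, at positions 220 to 229 (minus strand), 238 to 247 and 254 to 263. Tnfaip3 holds GGGACTTTCC and GGGGATTTCC on the minus strand at positions 184 to 193 and 196 to 205, and another match on that strand at 241 to 250, beside overlapping matches within 80 to 90. Bcl3 holds GGGAAGTCCC at 213 to 222, which also matches on the other strand, and a further match at 126 to 135. A match describes the letters of the window and does not show that a factor binds there.

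No member passed the test over all 6 libraries. At a Benjamini-Hochberg adjusted p of 0.05 or less in edgeR, 0 of 38 members were called, as were 0 of 12413 tested genes (0.0%). Limma-voom called 0 members and 0 genes, and DESeq2 called 0 members and 44 genes (0.354%). At an unadjusted p under 0.05 stood 2 members, Tnfrsf1a and Bcl3, of 38, against 849 of all genes (6.84%). The log2 fold change, bradykinin over control, ranged from -0.58 to 0.66, with a median of 0.09 beside a median of 0.01 over all tested genes. In bulk RNA, fewer cells that make a message and less message per cell cannot be told apart. Nothing in the labels says that the replicates were separate animals or cultures, so the p-values reflect variation among these libraries only, some of it perhaps technical.

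**Figure D1:**
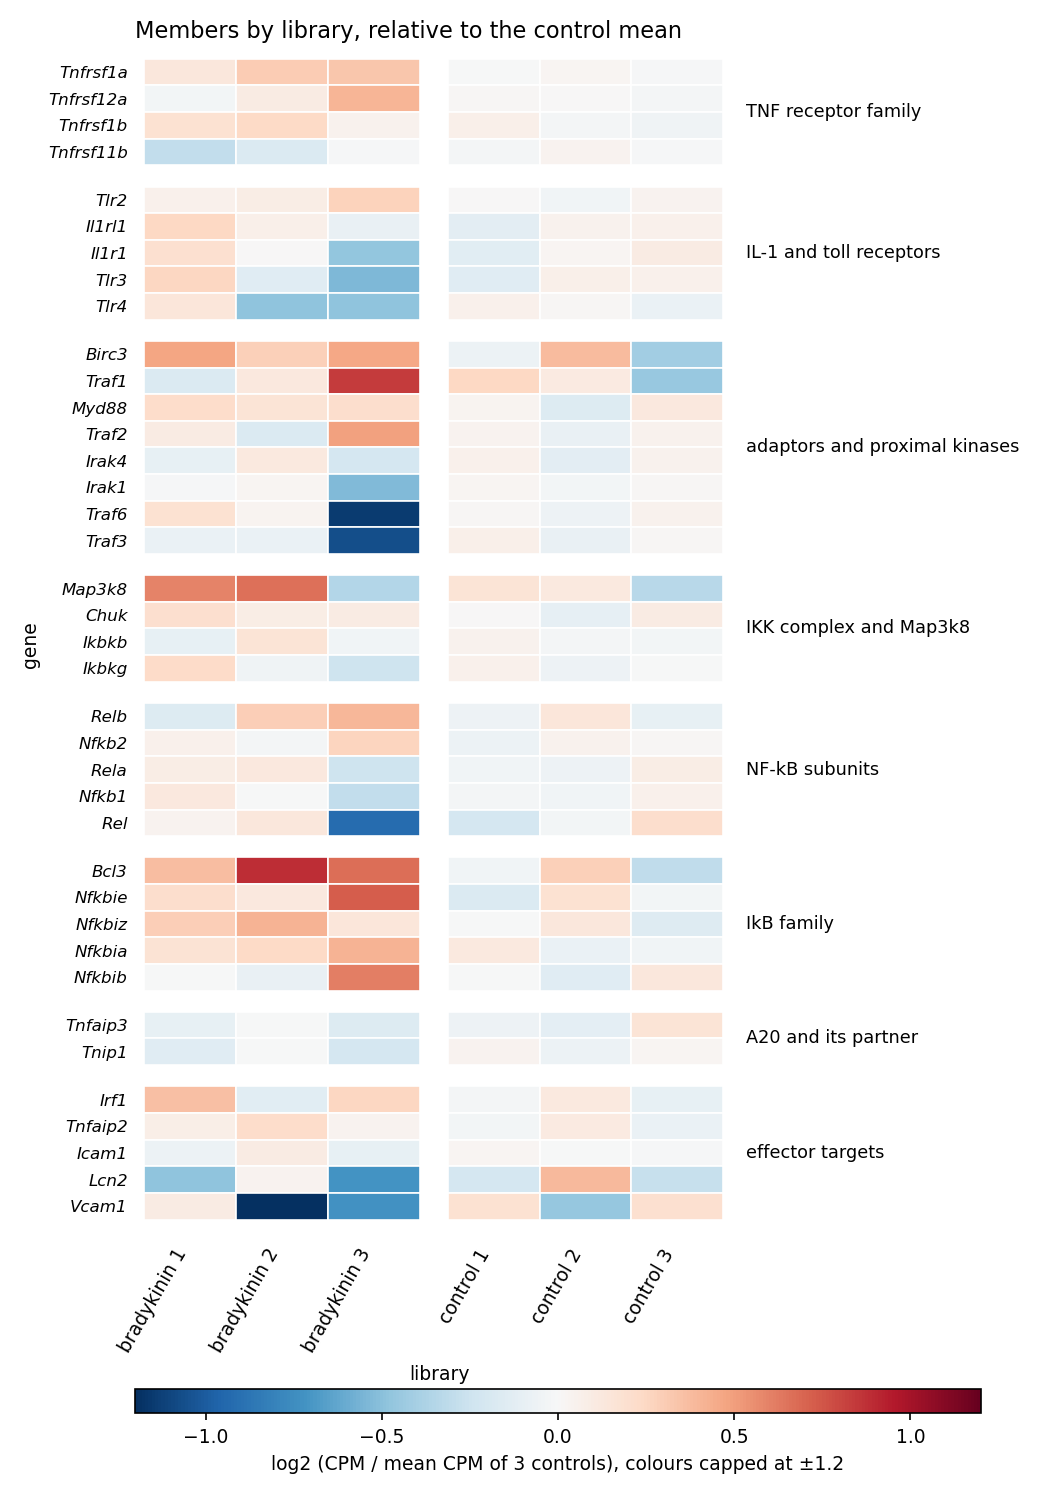
Each cell shows, for 1 member (rows, grouped by role) in 1 library (columns), the log2 ratio of its CPM to the mean CPM of the 3 controls, red above and blue below. The IkB family is mostly red in the bradykinin libraries, and in bradykinin replicate 3 Traf6, Traf3 and Rel are dark blue and Traf1 dark red; colours are capped at a log2 ratio of 1.2.

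Without bradykinin replicate 3, a single member passed. There 1 of 38 members rose and 0 fell, against 244 of 12536 genes that rose (1.95%) and 144 that fell (1.15%), and 388 called in all (3.1%), so the members' share was near the background. The member was Tnfrsf1a, and its call ended when any control library was left out as well. Leaving out bradykinin replicate 1 or 2 kept only 1 bradykinin library, which gives no basis for a call. At an unadjusted p under 0.05 stood 6 of 38 members, against 15.2% of all genes. The log2 fold changes ran from -0.51 to 0.66 (median 0.08), and 28 of 38 were above 0, against 6269 of 12536 genes. The 95% interval of 31 of 38 members lay wholly within a 1.5-fold change in either direction, so larger changes of these genes lay outside their intervals. The same was true of 9345 of 12536 tested genes. Over all 6 libraries that held for 22 of 38 members and for 6268 of 12413 tested genes. The sign of the log2 fold change turned for 13 of 38 members when replicate 3 was left out.

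**Figure D2:**
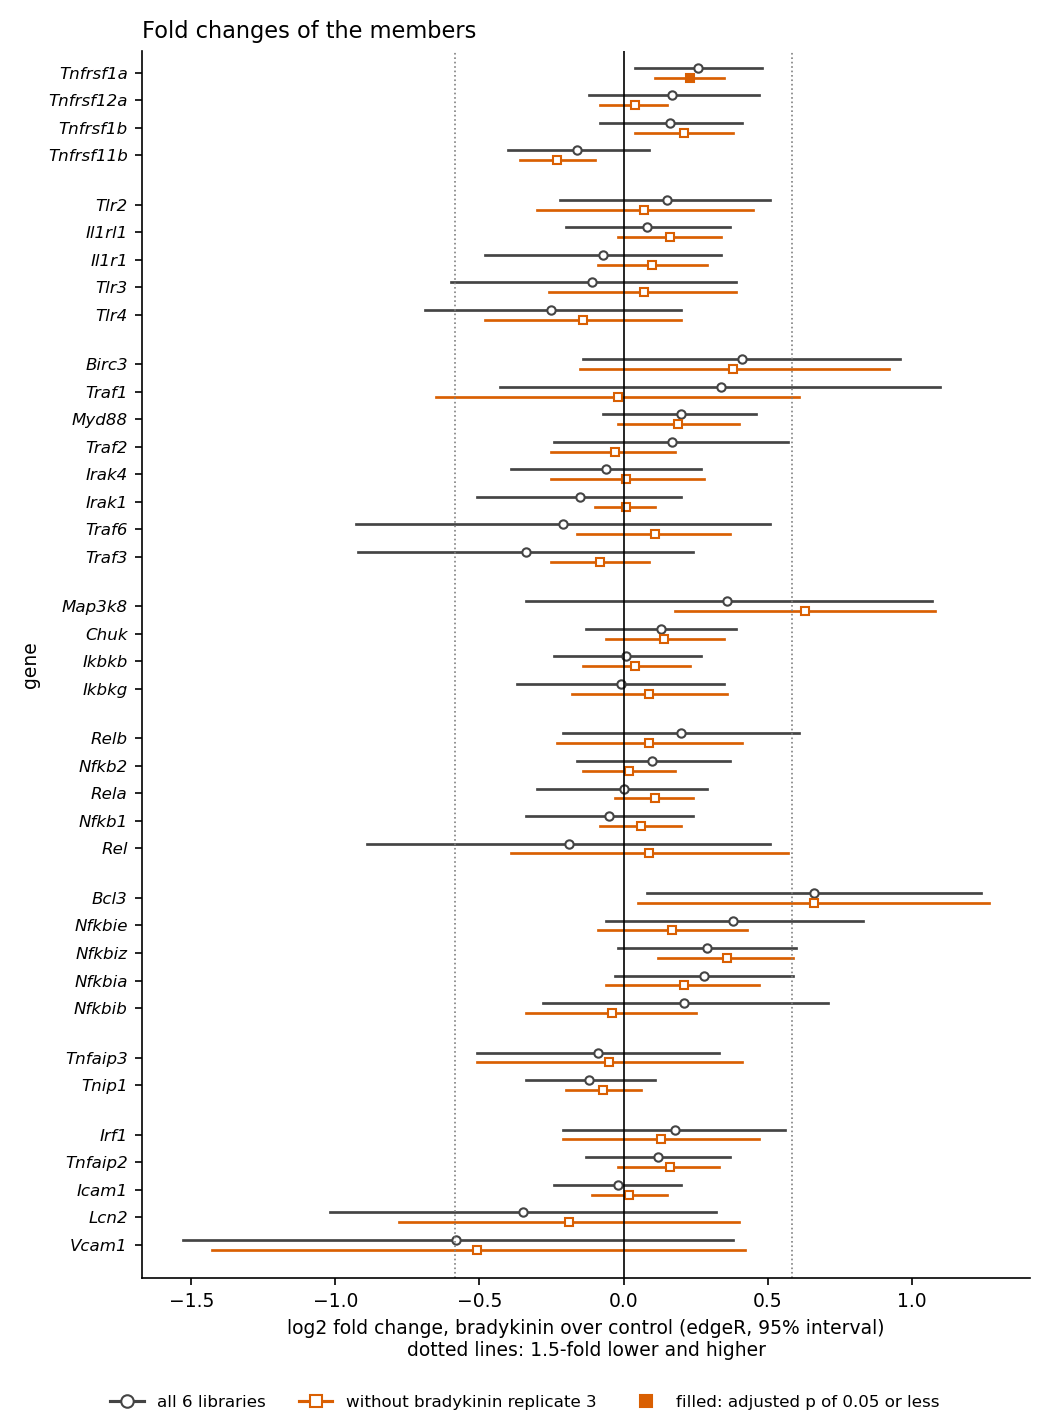
Points are edgeR log2 fold changes, bradykinin over control, of each member (rows), with 95% intervals, for all 6 libraries (grey circles) and without bradykinin replicate 3 (orange squares); filled points have an adjusted p of 0.05 or less. Tnfrsf1a without that library (0.23 ± 0.06, SE) is the filled point, and most orange intervals are shorter than the grey ones.

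Among the receptors of the TNF family, Tnfrsf1a (ENSRNOG00000031312), which encodes the widely expressed TNF receptor TNFR1 with its death domain, was higher in each bradykinin library. With bradykinin it was at 154, 174 and 177 CPM (replicates 1, 2 and 3, the order used throughout), and in controls at 139.7, 143 and 139 CPM. All bradykinin libraries lay above all controls, the library that stood apart included. The mean was 168 ± 12.3 CPM (SD, n = 3) with bradykinin and 141 ± 2.22 CPM (n = 3) in controls. Its log2 fold change was 0.26 ± 0.09 (SE) over 6 libraries (edgeR adjusted p = 0.714) and 0.23 ± 0.06 over 5 (adjusted p = 0.047). Over the 5 libraries the adjusted p missed the threshold with RLE size factors (0.0504, edgeR), library totals (0.0831, edgeR) and limma-voom (0.0522). With a further library left out the log2 fold change ran from 0.13 to 0.31. Where that was a bradykinin library, only 1 of its group remained. At 1.17-fold (95% interval 1.08 to 1.27 over 5 libraries) the difference was small.

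Tnfrsf1b, which encodes TNFR2, the receptor common on leukocytes, was at 33.0, 34.4 and 30.1 CPM with bradykinin and 30.5, 28.6 and 28.1 CPM in controls. Replicates 1 and 2 were above all controls, and replicate 3 was below the highest control. Its log2 fold change was 0.16 ± 0.11 over 6 libraries and 0.21 ± 0.08 over 5 (edgeR adjusted p = 0.737 and 0.199). Tnfrsf11b encodes osteoprotegerin, the soluble decoy receptor that binds RANKL. It was at 66.9, 72.7 and 81.3 CPM with bradykinin and at 80.5, 84.4 and 81.4 CPM in controls. Replicates 1 and 2 lay below every control, while replicate 3 lay among them. Its log2 fold change was -0.16 ± 0.10 over 6 libraries and -0.23 ± 0.06 over 5 (edgeR adjusted p = 0.737 and 0.0583). Over the 5 libraries it fell under scaling by library totals (-0.26, adjusted p = 0.0327) and without the filter on low counts (-0.23, adjusted p = 0.0229), both by edgeR. Scaling by library totals also moved the median over all tested genes, from 0.0 to -0.032. With bradykinin replicate 2 left out as well, only 1 bradykinin library remained, and the log2 fold change of Tnfrsf11b was -0.30. Tnfrsf12a, which encodes the TWEAK receptor Fn14, was at 118, 129 and 159.9 CPM with bradykinin and 122, 121 and 119 CPM in controls. Replicate 3 alone was far above the controls, and the log2 fold change was 0.17 ± 0.13 with it and 0.04 ± 0.05 without it.

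**Figure D3:**
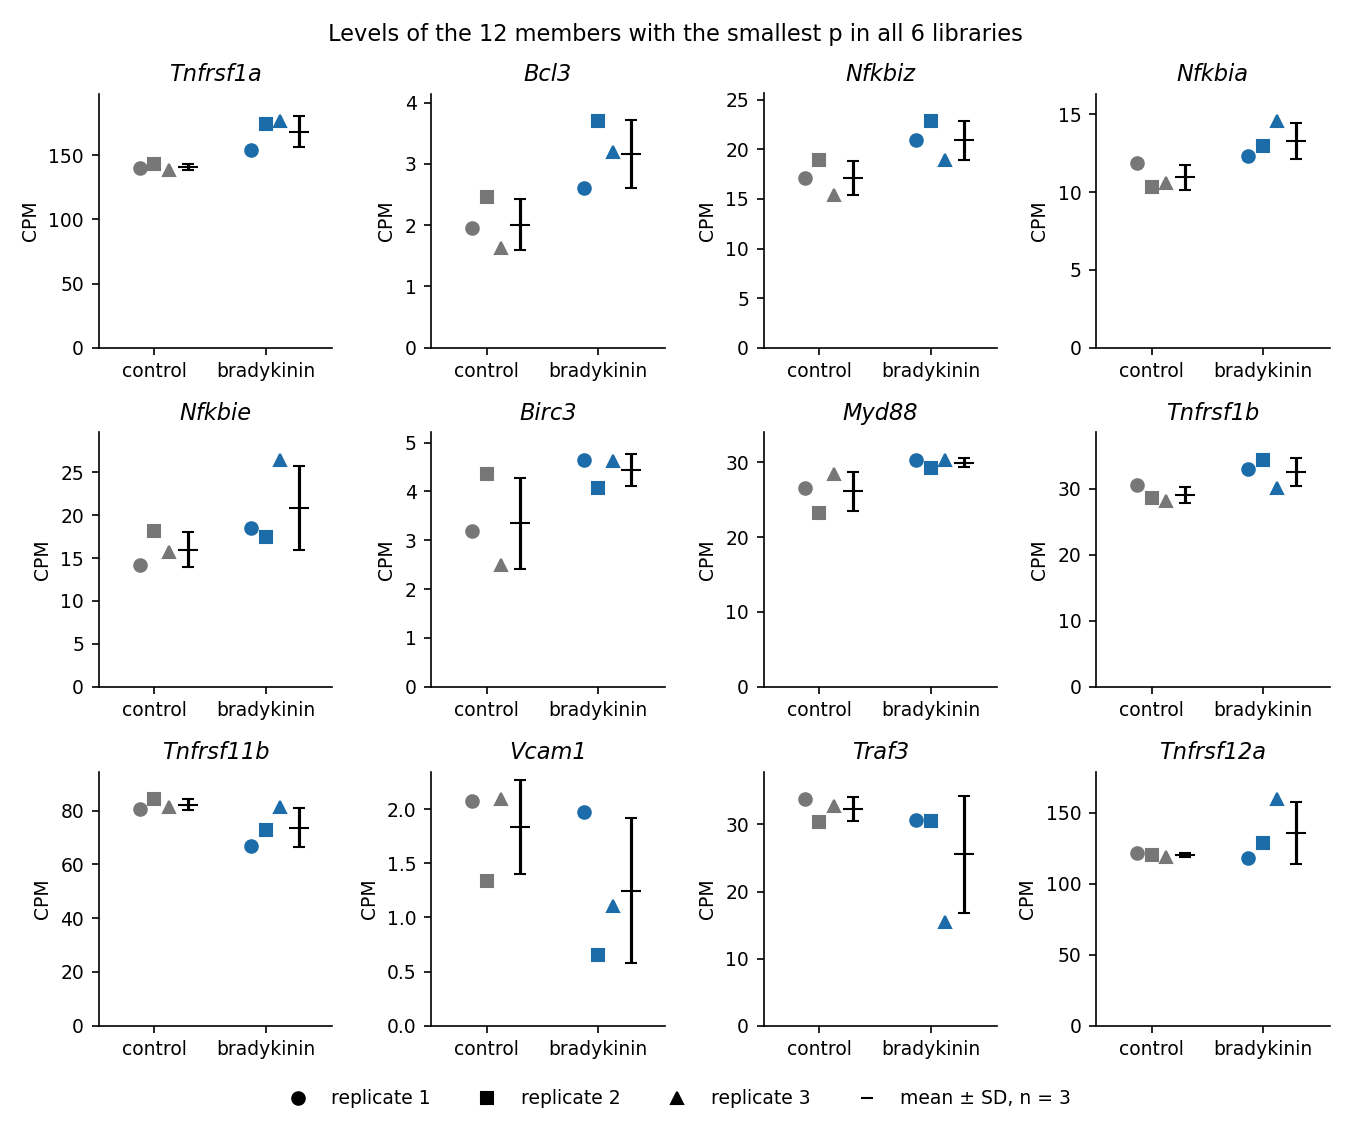
CPM of the 12 members with the smallest p over 6 libraries, by group, with a marker shape for each replicate number and black bars for the mean ± SD (n = 3). For Tnfrsf1a all 3 bradykinin libraries (154 to 177 CPM) lie above the controls (139 to 143 CPM), while for Traf3 and Tnfrsf12a replicate 3 lies far from the other libraries.

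Receptors of the IL-1 and toll families showed no change that passed. Il1r1, the signalling receptor for IL-1, was at 41.2, 36.2 and 25.97 CPM with bradykinin and 32.9, 36.8 and 38.8 CPM in controls. The groups overlapped, with bradykinin replicate 1 the highest library and replicate 3 the lowest. Its log2 fold change was -0.07 ± 0.18 over 6 libraries and 0.10 ± 0.09 over 5. Tlr4, the receptor for lipopolysaccharide, was at 15.7, 10.2 and 10.1 CPM with bradykinin and 14.8, 14.3 and 13.5 CPM in controls. Here replicate 1 was the highest of all libraries and replicates 2 and 3 were the lowest, so the groups overlapped (-0.25 ± 0.19, edgeR adjusted p = 0.737; -0.14 ± 0.16 over 5 libraries). With bradykinin replicate 1 left out instead, the log2 fold change was -0.48. Tlr2, the receptor for bacterial lipoproteins, was at 5.28, 5.38 and 6.12 CPM against 5.07, 4.91 and 5.21 CPM. All bradykinin libraries were above all controls, by little (0.15 ± 0.16, and 0.07 ± 0.17 over 5 libraries). Tlr3, the endosomal receptor for double-stranded RNA, ranged from 6.77 to 11.7 CPM and Il1rl1, the IL-33 receptor, from 36.0 to 46.5 CPM, both with groups that overlapped over 6 libraries. Their log2 fold changes were -0.11 ± 0.21 and 0.08 ± 0.12. Without replicate 3 they were 0.07 ± 0.15 and 0.16 ± 0.08, and both bradykinin libraries left were above all controls for Il1rl1.

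Of the adaptors, Myd88, which links toll and IL-1 receptors to the IRAK kinases, was at 30.4, 29.3 and 30.3 CPM with bradykinin and 26.6, 23.2 and 28.5 CPM in controls. The bradykinin libraries lay close together and all were above the controls, but the spread of the controls was larger than theirs (0.20 ± 0.11, edgeR adjusted p = 0.737; 0.19 ± 0.10 and 0.376 over 5 libraries). Irak4, the first kinase after Myd88, ranged from 11.1 to 13.9 CPM. It had a log2 fold change of -0.06 ± 0.14 over 6 libraries and 0.01 ± 0.12 over 5. Irak1, its substrate and partner, was at 125, 128 and 86.9 CPM with bradykinin and at 123 to 128 CPM in controls. Its log2 fold change was -0.15 ± 0.15 over 6 libraries. Without replicate 3 it was 0.01 ± 0.05, with a 95% interval from -0.10 to 0.11.

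The TRAF genes, whose products are the ubiquitin ligases and scaffolds below these receptors, were set apart by replicate 3. Traf3, which restrains the non-canonical pathway, was at 30.7, 30.5 and 15.4 CPM with bradykinin and 33.8, 30.4 and 32.7 CPM in controls. Replicate 3 held about 1 log2 unit less than the mean of the other 5 libraries (-1.03). The log2 fold change was -0.34 ± 0.25 over 6 libraries and -0.08 ± 0.08 without replicate 3. Traf6, the ligase of the toll and IL-1 branch, was at 12.6, 11.3 and 5.01 CPM against 11.2, 10.6 and 11.5 CPM, again low in replicate 3 only (-0.21 ± 0.31 over 6 libraries and 0.11 ± 0.12 over 5). Traf2, the ligase of the TNF receptor branch, and Traf1, itself an NF-kB target, went the other way in that library. Traf2 was at 35.1 CPM in replicate 3 against 22.1 to 26.6 CPM in the other libraries, and Traf1 at 4.295 CPM against 1.76 to 2.86 CPM. Their log2 fold changes were 0.17 ± 0.17 and 0.34 ± 0.33 over 6 libraries, and -0.03 ± 0.10 and -0.02 ± 0.29 without replicate 3. Birc3, which encodes the inhibitor of apoptosis cIAP2 and is a target of NF-kB, was at 4.65, 4.07 and 4.62 CPM with bradykinin and 3.18, 4.35 and 2.50 CPM in controls. The groups overlapped through control replicate 2, and the log2 fold change of 0.41 ± 0.24 did not pass (edgeR adjusted p = 0.737; 0.38 ± 0.25 over 5 libraries). It was 0.64 without control replicate 2 and 0.24 without control replicate 3.

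No gene of the IKK complex passed. Ikbkb, Chuk and Ikbkg, which encode its catalytic subunits IKK-beta and IKK-alpha and its scaffold NEMO, ranged over the libraries from 31.7 to 38.0, 21.4 to 26.5 and 10.5 to 14.6 CPM. Their log2 fold changes were 0.04 ± 0.09, 0.14 ± 0.09 and 0.09 ± 0.12 without bradykinin replicate 3. The 95% interval of each lay within a 1.5-fold change there, and also over all 6 libraries, where the changes were 0.01 ± 0.11, 0.13 ± 0.11 and -0.01 ± 0.15. Map3k8, the kinase Tpl2 that joins NF-kB signalling to ERK, was less even. It was at 5.28, 5.52 and 2.73 CPM with bradykinin and at 3.90, 3.79 and 2.77 CPM in controls. Replicates 1 and 2 were above all controls and replicate 3 was below them. The log2 fold change was 0.36 ± 0.30 over 6 libraries and 0.63 ± 0.21 over 5 (edgeR adjusted p = 0.744 and 0.148).

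The genes of the NF-kB subunits themselves did not pass in either comparison. Rela, which encodes the transactivating subunit p65, was at 77.6, 79.3 and 61.0 CPM with bradykinin and 70.8, 69.9 and 77.5 CPM in controls. Replicate 3 was the lowest library and replicates 1 and 2 were the highest, by a margin of less than 0.1 CPM for replicate 1. The log2 fold change was near 0 over 6 libraries (adjusted p = 0.996 by edgeR) and 0.11 ± 0.06 over 5. Nfkb1, the gene of p105 and its product p50, was at 71.4, 65.2 and 53.4 CPM against 64.5, 63.5 and 68.4 CPM, with overlapping groups (-0.05 ± 0.13, and 0.06 ± 0.06 over 5 libraries). Nfkb2, Relb and Rel, the genes of p100, RelB and c-Rel, ranged from 35.6 to 44.8, 10.3 to 15.2 and 1.82 to 3.99 CPM. Their log2 fold changes were 0.10 ± 0.11, 0.20 ± 0.18 and -0.19 ± 0.30 over 6 libraries. Over 5 libraries they were 0.02 ± 0.07, 0.09 ± 0.15 and 0.09 ± 0.22. All 5 subunit genes had 95% intervals within a 1.5-fold change over 5 libraries, but only 3 over 6. In bradykinin replicate 3 Nfkb2 and Relb were the highest of all libraries, and Rela, Nfkb1 and Rel the lowest.

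In the IkB family all 5 log2 fold changes were above 0 over 6 libraries (median 0.29, range 0.21 to 0.66) and 4 of 5 without replicate 3 (median 0.21), with 0 called in either, against 51.3% of all genes above 0 over 6 libraries. Bcl3 (ENSRNOG00000043416), a nuclear member that works with p50 and p52 dimers, was at 2.60, 3.71 and 3.19 CPM with bradykinin and 1.95, 2.46 and 1.62 CPM in controls. All bradykinin libraries lay above all controls. The log2 fold change was 0.66 ± 0.25 over 6 libraries and 0.66 ± 0.28 over 5 (edgeR adjusted p = 0.714 and 0.29). These levels rest on 24 to 51 counts per library, and the 24 counts of control replicate 3 have an exact Poisson 95% interval of 15.4 to 35.7, counting error only.

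Nfkbiz (ENSRNOG00000031163), whose product IkB-zeta is an inducible nuclear cofactor, was at 20.97, 22.9 and 18.9 CPM with bradykinin and 17.1, 18.9 and 15.4 CPM in controls. The groups did not overlap, though replicate 3 was above control replicate 2 by less than 0.1 CPM. The log2 fold change was 0.29 ± 0.13 over 6 libraries and 0.36 ± 0.11 over 5 (edgeR adjusted p = 0.737 and 0.111). Nfkbia (ENSRNOG00000007390) encodes IkB-alpha, the classical inhibitor that NF-kB resynthesises as feedback. It was at 12.3, 12.9 and 14.6 CPM with bradykinin and 11.9, 10.3 and 10.6 CPM in controls. The groups did not overlap, and the log2 fold change was 0.28 ± 0.13 over 6 libraries and 0.21 ± 0.12 over 5 (adjusted p = 0.737 and 0.481 by edgeR).

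Nfkbie and Nfkbib, the genes of the cytoplasmic inhibitors IkB-epsilon and IkB-beta, were highest in bradykinin replicate 3. Nfkbie (ENSRNOG00000019907) was at 18.5, 17.5 and 26.5 CPM with bradykinin and 14.2, 18.2 and 15.7 CPM in controls. Its log2 fold change of 0.38 ± 0.19 over 6 libraries became 0.17 ± 0.12 without that library. Nfkbib was at 15.4 CPM in replicate 3 and between 9.06 and 11.02 CPM in the other libraries, and its log2 fold change went from 0.21 ± 0.21 to -0.04 ± 0.14. Nfkbia too was highest in that library.

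The genes of A20, which ends NF-kB signalling by editing ubiquitin chains, and of its partner had log2 fold changes below 0 that did not pass. Tnfaip3, the gene of A20 and a textbook NF-kB target, was at 3.55, 3.78 and 3.38 CPM with bradykinin and 3.64, 3.51 and 4.26 CPM in controls. The groups overlapped, and the log2 fold change was -0.09 ± 0.18 over 6 libraries and -0.05 ± 0.21 over 5. At 45 to 63 counts per library its 95% interval without replicate 3 ran from -0.51 to 0.41. Tnip1, which encodes the A20-binding protein ABIN1, ranged from 91.96 to 109 CPM (-0.12 ± 0.10 over 6 libraries and -0.07 ± 0.06 over 5).

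Effector targets gave no call. Icam1, the adhesion molecule that leukocyte integrins bind, was at 88.0 to 100.5 CPM with bradykinin and 93.2 to 95.7 CPM in controls. Its log2 fold change was -0.02 ± 0.09 over 6 libraries. Over 5 libraries it was 0.02 ± 0.06, with a 95% interval from -0.11 to 0.15. Tnfaip2, a TNF-induced gene, and Irf1, a transcription factor shared with the interferon response, ranged from 35.96 to 44.5 and 8.86 to 12.4 CPM. Their log2 fold changes were 0.12 ± 0.11 and 0.18 ± 0.17 over 6 libraries, and 0.16 ± 0.08 and 0.13 ± 0.16 over 5. Vcam1, the endothelial-type adhesion molecule, was at 1.97, 0.654 and 1.11 CPM with bradykinin and 2.08, 1.33 and 2.095 CPM in controls. The groups overlapped, and these levels rest on 9 to 32 counts (-0.58 ± 0.41, and -0.51 ± 0.43 over 5 libraries). With bradykinin replicate 1 or 2 left out the log2 fold change was -1.04 or -0.28. Lcn2, the gene of an iron-trapping lipocalin, had 32 to 50 counts with bradykinin and 43 to 66 in controls, again overlapping (-0.35 ± 0.29 over 6 libraries and -0.19 ± 0.27 over 5).

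Over all 6 libraries, 6 of 38 members had every bradykinin library above every control, namely Tnfrsf1a, Bcl3, Nfkbiz, Nfkbia, Myd88 and Tlr2, against 8.84% of all tested genes. In the other direction there were 0 of 38, against 8.71%. Without bradykinin replicate 3 the counts were 10 above and 1 below, against 16.2% and 15.4% of all tested genes. The 4 that joined were Tnfrsf1b, Map3k8, Il1rl1 and Rela, and the 1 below was Tnfrsf11b. None of these apart from Tnfrsf1a passed the test.

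The 8 members whose windows hold GGGNNTTTCC were Ikbkg, Nfkb1, Nfkb2, Nfkbia, Nfkbiz, Rel, Tnfaip3 and Traf3. Their median log2 fold change was -0.03 (range -0.34 to 0.29) over 6 libraries, against 0.13 for the 25 members whose windows lack it, and over 5 libraries both medians were 0.07. Of the 8, 3 were above 0 over 6 libraries and 6 over 5. Of the 3 members with GGGAATTTCC, Nfkbia, Nfkbiz and Nfkb1 had log2 fold changes of 0.28, 0.29 and -0.05 over 6 libraries and 0.21, 0.36 and 0.06 over 5. Tnfaip3, whose pair of GGGNNTTTCC matches has other letters, was at -0.09 over 6 libraries and -0.05 over 5. Tnfrsf1a, the 1 member called over 5 libraries, holds no match in its window. Over all genes, 4 of 143 tested genes with the motif were called over 5 libraries (2.8%), against 3.06% of tested genes whose windows lack it.

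Bradykinin replicate 3 differed from the other libraries in these genes as it did across genes. It was the highest or lowest library for 26 of 38 members, 10 highest and 16 lowest, against 75.5% of all tested genes. In the other libraries that number was 5 to 15, against 21.3% to 31.0% of all tested genes. The SD over members of the log2 deviation from the mean of the other 5 libraries was 0.46 in replicate 3, against 0.17 to 0.29 in the rest. Over all tested genes that SD was 0.61 in replicate 3, against 0.25 to 0.29 in the rest. The members farthest below the other libraries were Traf6 (-1.17), Traf3 (-1.03) and Rel (-0.90), and those farthest above were Traf1 (0.83), Nfkbie (0.66) and Nfkbib (0.63). Traf6, Rel, Traf1, Traf2, Nfkbib, Irak1, Map3k8 and Tlr2 were described library by library or singled out here after their values were seen. The bradykinin label is the same for all 3 libraries, so what sets replicate 3 apart cannot be told from the labels.

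Further genes of the pathway were taken from lists of upstream signalling genes and of NF-kB targets. Of 53 upstream genes 51 had a row, 7 of these were too low to test, and 0 of the 44 tested changed over 6 libraries (median log2 fold change -0.01). Without replicate 3, 1 of 44 rose and 0 fell (median 0.03), near the shares of all tested genes, 1.95% and 1.15%. It was Tollip, an adaptor that dampens toll and IL-1 signalling, at 97.8 and 96.8 CPM in the bradykinin pair kept and 77.8, 84.5 and 83.9 CPM in controls (0.25 ± 0.06, edgeR adjusted p = 0.0365). In replicate 3, however, Tollip was at 36.3 CPM, far below the controls, so over 6 libraries the log2 fold change was -0.09 ± 0.33. Its call over 5 libraries ended when any control library was left out and with library totals (edgeR adjusted p = 0.0793). With any further library left out its log2 fold change ran from 0.21 to 0.27. Where that was a bradykinin library, only 1 of its group remained. The smallest p over 6 libraries belonged to Tlr6, a partner of TLR2, at 1.66, 2.25 and 1.76 CPM with bradykinin and 2.60, 3.72 and 2.77 CPM in controls. All bradykinin libraries lay below all controls (-0.68 ± 0.25, edgeR adjusted p = 0.714, and -0.62 ± 0.28 over 5 libraries). Fadd, the adaptor of death receptors, was at 29.0, 29.4 and 24.0 CPM against 22.7, 20.5 and 24.6 CPM. Its log2 fold change was 0.28 ± 0.13 over 6 libraries and 0.37 ± 0.09 over 5 (adjusted p = 0.0532 over 5 by edgeR). Tab3, Ikbke, Tirap and Cd14, a TAK1-binding protein, an IKK-related kinase, a toll adaptor and the lipopolysaccharide co-receptor, had log2 fold changes of -0.59 ± 0.27, -0.28 ± 0.15, -0.36 ± 0.21 and 0.30 ± 0.18 over 6 libraries, and -0.34 ± 0.18, -0.21 ± 0.13, -0.18 ± 0.16 and 0.12 ± 0.13 over 5, and did not pass.

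Of 36 target genes 31 had a row, 9 of these were too low to test, and 0 of 22 passed over 6 libraries (median log2 fold change 0.20). Among those too low, Il1b had 0 counts in every library and Il6 had 1 to 9. Over 6 libraries 17 of the 22 were above 0, against 51.3% of all tested genes, and 5 were below. Of those below, C3 was at -0.42 ± 0.26 (-0.26 ± 0.26 over 5 libraries) and Bcl2l1 at -0.09 ± 0.12 (-0.20 ± 0.07 over 5). At an unadjusted p under 0.05 stood 6 of 22, all higher, against 6.84% of all tested genes. Without replicate 3, 2 of 22 rose, against 1.95% of all tested genes, and 0 fell, against 1.15% (median log2 fold change 0.12). They were Ptgs2, the inducible cyclooxygenase, and Junb, an AP-1 subunit. Ptgs2 was at 208, 186 and 207 CPM with bradykinin and 128, 147 and 137 CPM in controls, and Junb at 102, 93.0 and 98.2 CPM against 70.7, 73.8 and 62.5 CPM. The groups did not overlap for either, replicate 3 included. Over 6 libraries their log2 fold changes were 0.54 ± 0.10 and 0.50 ± 0.10 (edgeR adjusted p = 0.437 and 0.561). Over 5 libraries they were 0.52 ± 0.06 and 0.50 ± 0.07 (edgeR adjusted p = 0.000827 and 0.0022), and DESeq2 called both over all 6 libraries. Over 6 libraries every bradykinin library lay above every control in 8 of 22 targets, against 8.84% of all tested genes, and below in 0, against 8.71%. Over 5 libraries these counts were 9 and 1, against 16.2% and 15.4%. Gadd45b, a stress-induced growth arrest gene, was at 71.9, 72.3 and 87.3 CPM with bradykinin and 62.7, 61.5 and 60.8 CPM in controls (0.32 ± 0.11, and 0.23 ± 0.06 with adjusted p = 0.0537 over 5 libraries by edgeR). Sod2, the mitochondrial superoxide dismutase, was at 93.1, 112.6 and 129 CPM against 84.2, 93.2 and 90.5 CPM, with overlapping groups (0.32 ± 0.13, and 0.21 ± 0.08 over 5 libraries). Ccl2 and Tnfaip6, a monocyte chemokine and a hyaluronan-binding protein, did not pass. Their log2 fold changes were 0.42 ± 0.16 and 0.40 ± 0.16 over 6 libraries, and 0.37 ± 0.16 and 0.23 ± 0.11 over 5.

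**Figure D4:**
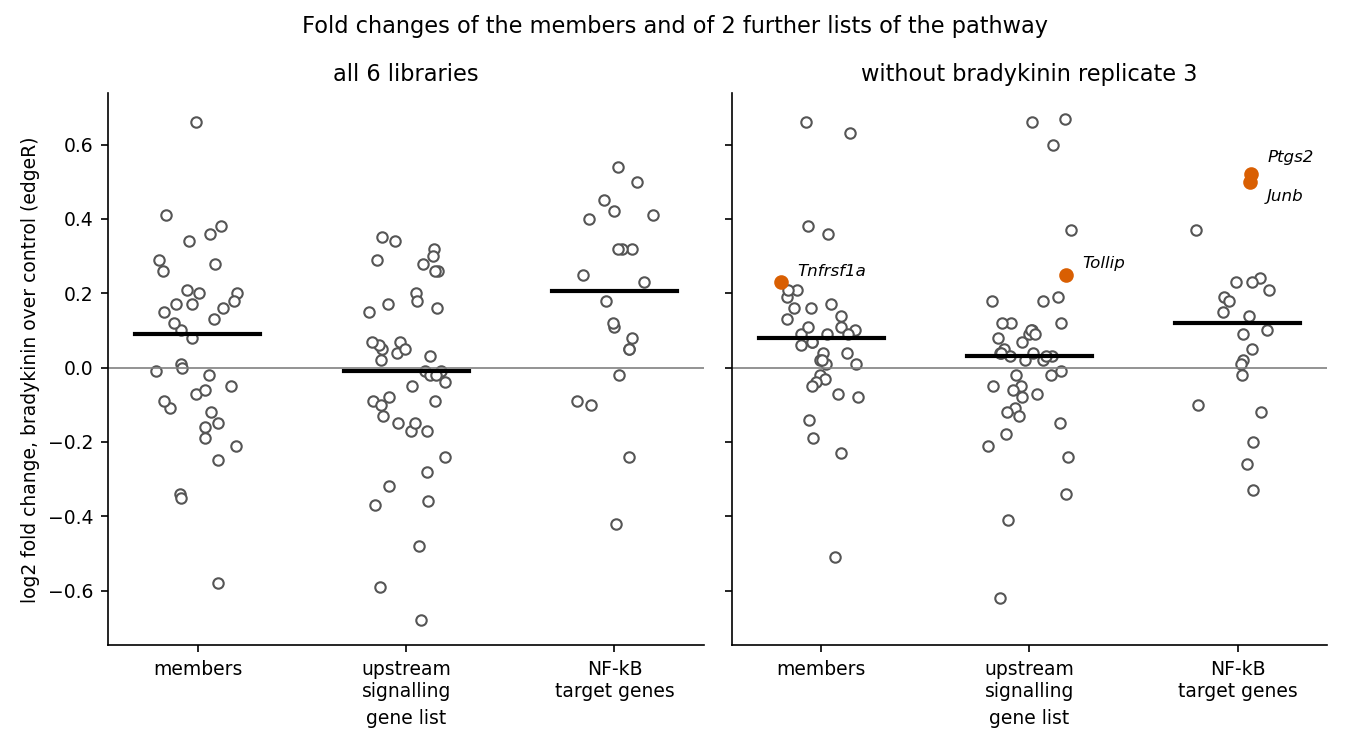
Each circle is a tested gene, plotted by its edgeR log2 fold change, bradykinin over control, in all 6 libraries (left) and without bradykinin replicate 3 (right); bars are list medians and orange circles have an adjusted p of 0.05 or less. Medians lie at 0.09, -0.01 and 0.20 on the left and 0.08, 0.03 and 0.12 on the right, where Tnfrsf1a, Tollip, Ptgs2 and Junb are the orange circles.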

How the data were processed

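Deposited values are raw whole-number counts of genes by Ensembl identifier, for 3 bradykinin and 3 control libraries. The submitters' processing notes list RSEM 1.3.3, HISAT2 2.2.1 and Bowtie2 2.4.5, then fastp 0.23.2, DESeq2 1.34.0 and SAMtools, with build Rnor_6.0. The labels do not state how RSEM estimates became whole counts. The labels do not say that strand was kept, so overlapping antisense genes cannot be separated.

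Symbols came from Entrez identifiers and a RefSeq table (GRCr8); 14885 of 17139 rows had a single symbol. Genes were kept by filterByExpr and scaled by TMM in edgeR 4.0.16 (R 4.3.3), and compared by its quasi-likelihood F test (two-sided), adjusted by Benjamini-Hochberg over 12413 genes (12536 without bradykinin replicate 3). A gene was called at an adjusted p of 0.05 or less. SE is the log2 fold change divided by the root of F. Log2 CPM used a prior count of 2. The edgeR step was tested on simulated data. Members, lists and the exclusion of replicate 3 were chosen with earlier results of these data known. Library-by-library values are given for the 12 members with the smallest p, those called, and 8 core members, with other members and up to 6 genes of each further list beside called ones. Alternatives were RLE factors, library totals, DESeq2 1.42.0, limma-voom (limma 3.58.1), no filter, 1 CPM in 3 libraries, each library left out and a replicate block. Gene lengths were not used here, so levels are not compared between genes.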

Additional observations from a re-analysis of the deposited data

How the results depend on the processing

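Over all 6 libraries the count of members called was 0 under every alternative except that without bradykinin replicate 3, and leaving out libraries gave 0 to 1 members, 0 to 388 genes and 0 to 3 genes of the further lists. DESeq2 called 44 genes (25 higher and 19 lower) and 2 of the further lists. With libraries left out, the log2 fold changes of Rela (-0.07 to 0.11), Nfkb1 (-0.14 to 0.06), Il1r1 (-0.22 to 0.10) and Tollip (-0.30 to 0.25) changed sign. Without bradykinin replicate 3 the sign turned for 13 members in all, the other 10 being Icam1, Ikbkg, Irak1, Irak4, Nfkbib, Rel, Tlr3, Traf1, Traf2 and Traf6. The members' median ran from 0.05 to 0.09 with libraries left out.

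Over the 5 libraries without bradykinin replicate 3, members called numbered 0 with RLE factors and with limma-voom and 2 without the filter, which also gave 681 genes and 5 of the further lists. Library totals lowered the members' median to 0.05, and called 1 member, Tnfrsf11b, in place of Tnfrsf1a. That scaling also moved the median over all tested genes, from 0.0 to -0.032. Leaving out a further library gave 0 to 1 members, 138 to 333 genes, 2 to 3 of the further lists and a median of 0.06 to 0.09. A bradykinin group of 1 library was there assumed to vary like the controls. Ptgs2 and Junb kept their calls under each of these alternatives that kept 2 bradykinin libraries. With only 1 kept, their log2 fold changes were 0.43 to 0.60 and 0.43 to 0.56. Low counts limit Bcl3, Vcam1, Traf1, Rel, Lcn2, Birc3, Tnfaip3 and Map3k8.

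Libraries that share a replicate number did not deviate together (correlations of -0.094, -0.017 and -0.051), and the labels do not say that a number marks a pairing. With the replicate block, 0 members, 0 genes and 0 of the further lists were called by edgeR (1, 591 and 4 at an unadjusted p under 0.05), and the members' median was 0.09.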
